A study of Sorghum bicolor with 5 samples.

Results

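The non-coding RNA features of sorghum leaf RNA-seq were described here as the rows of the gene count tables whose ID begins with ENSRNA and that held at least 10 counts over the 5 libraries. Of 1449 ENSRNA rows among 35567 rows in all, 216 met this rule. The study used RNA-seq to compare gene expression in young leaves of 2 epi-F3 lines of sorghum with contrasting growth rates. Epi68, the enhanced line called epi-F3 high, was represented by 2 plants, P1 and P3. Epi15, the non-enhanced line called epi-F3 low, was represented by 3 plants, P1, P2 and P3. Each plant gave 1 library. The paper describes 3 plants of each line, and a further Epi68 plant was not analysed here. Both lines share the Tx430 inbred background. They descend from crosses of wild-type Tx430 with progeny that had lost the transgene which suppressed *MSH1* in their parents, so no plant of either line was described as carrying the transgene. *MSH1* is a nuclear gene for a protein of plastids and mitochondria. The plants were 4 weeks old by the methods and grew in a greenhouse with 14 h days at 28°C and nights at 22°C. Each group is a single line, so a difference between the groups is a difference between 2 lines, and no wild-type Tx430 library was among the 5.

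Non-coding RNA genes give RNAs that act without being translated. In genome annotations of this kind they cover transfer RNAs that deliver amino acids, ribosomal RNAs, spliceosomal small nuclear RNAs, small nucleolar RNAs that guide modification of other RNAs, the RNAs of the signal recognition particle and of RNase P, and precursors of microRNAs. Many of them lack a poly(A) tail, and many exist as families of near-identical copies. The sources used here pair no ENSRNA ID with a class, a gene name, a length, a position or a sequence. Each row is therefore named by its ID alone, no role is given to any of them, and the label non-coding rests on the ID prefix. The other 34118 rows carry SORBI_ locus IDs, which in this annotation are mainly protein-coding genes. Of these, 22882 held at least 10 counts and served for comparison, also without a class for each row.

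How such RNAs are sampled depends on the library and the count. The libraries followed a TruSeq RNA v2 guide, which as a protocol begins with capture of poly(A) RNA. The methods call the libraries total RNA-derived, and whether poly(A) capture or another enrichment was used is not given in the sources used here, so it is not known how far RNAs without a tail were sampled. The authors kept uniquely mapped reads, so reads that fit several copies equally well were left out before counting. Reads that overlapped more than 1 gene were set aside as ambiguous. The guide named above is for libraries that do not record strand, but the strand setting used for counting is not given. How reads were handled where an ENSRNA row overlaps a gene on the other strand is thus not known. A count in an ENSRNA row is thus a count of uniquely placed reads, and with no lengths at hand, counts of different rows are compared as counts and not as levels per length.

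The 5 libraries held 48372266 to 68979436 counts in genes. Reads in no gene made up 7.07% and 5.21% of reads in Epi68 P1 and P3, against 5.37%, 4.69% and 3.77% in Epi15 P1, P2 and P3. The 44 sorghum genes that the study pairs with a plastid- or mitochondrion-encoded Arabidopsis gene took 0.122% and 0.0287% of gene counts in Epi68 P1 and P3, against 0.0175%, 0.0208% and 0.00809% in the Epi15 plants. On both measures Epi68 P1 was the highest library and Epi15 P3 the lowest. Nothing in the labels says that the plants of a line were grown or extracted apart, so the errors given measure the spread between these plants. Leaf identity could not be checked, since no source used here pairs the IDs of leaf markers with names.

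ENSRNA rows were sparsely counted. Of all 1449, 1122 rows (77.4%) had no count in any library, against 23.9% of SORBI_ rows. A further 111 rows held 1 to 9 counts, together 364 counts. At the edge of the rule, 6 rows with 9 counts and 2 rows with 8 counts fell just outside, while 1 row with 10 counts and 2 rows with 11 counts fell just inside. Among the 216 rows kept, 109 (50.5%) held 10 to under 100 counts over the 5 libraries, 91 (42.1%) held 100 to under 1000 and 16 (7.41%) held 1000 or more. Of the SORBI_ rows kept, 64.7% held 1000 or more. The median total was 98.5 counts for ENSRNA rows and 3289.5 counts for SORBI_ rows. A count was seen in all 5 libraries for 166 of the ENSRNA rows. The other 50 rows (23.1%) were at 0 in at least 1 library, against 10.2% of SORBI_ rows. The number of the 216 rows with a count was 196 and 212 in Epi68 P1 and P3, against 198, 184 and 207 in the Epi15 plants.

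**Figure D1:**
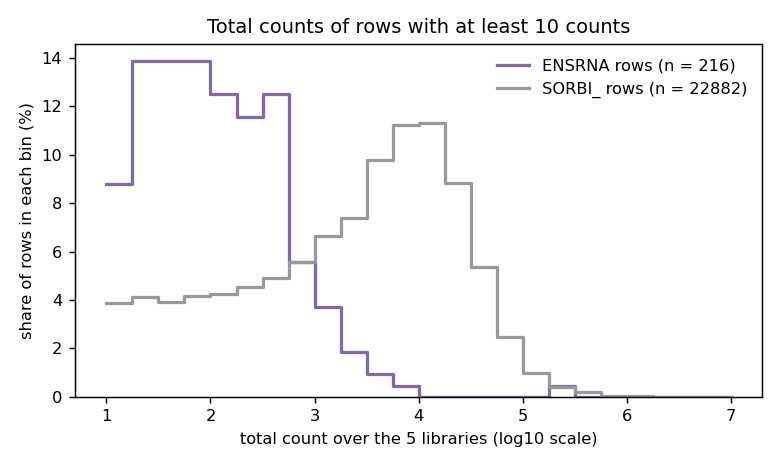
Share of rows (percent, vertical axis) by total count over the 5 libraries (log10 scale, horizontal axis) for the 216 ENSRNA rows and the 22882 SORBI_ rows with at least 10 counts. ENSRNA rows lie mostly under 1000 counts with a median of 98.5, and 1 row stands alone at 224674 counts.

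The counts of the ENSRNA rows were concentrated in a single row. The 216 rows held 291991 counts, which is 0.0973% of all gene counts, although they made up 0.935% of the 23098 rows tested. ENSRNA049470939 alone held 224674 counts, or 76.9% of them. It ranked 111 by total count among all rows tested and had 34.0 times the counts of the second ENSRNA row, ENSRNA049471137. The 10 rows with the most counts held 85.7% of the ENSRNA counts. At the other end, the 109 rows with fewer than 100 counts held 1.54%, or 4484 counts.

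The share of gene counts in ENSRNA rows was 0.158% in Epi68 P1 and 0.114% in Epi68 P3, against 0.0849%, 0.111% and 0.0369% in Epi15 P1, P2 and P3. Both Epi68 plants lay above all Epi15 plants, but Epi68 P3 and Epi15 P2 lay close together, with 95% Wilson intervals of 0.113% to 0.115% and 0.110% to 0.112% that cover counting error only. These shares are of unscaled counts. The TMM factors, used below for single rows, were 1.09 for Epi68 P3 and 0.938 for Epi15 P2. Scaled by them, Epi15 P2 would lie above Epi68 P3, so the separation of the lines depends on the scale. The mean was 0.136 ± 0.0311% in Epi68 (SD, n = 2) and 0.0776 ± 0.0375% in Epi15 (SD, n = 3). The spread within each line was wide, and the highest share, in Epi68 P1, was 4.29 times the lowest, in Epi15 P3. Library depth differed by 1.43 times at most. Epi68 P1 and Epi15 P3 were also the extremes for reads in no gene and for the organelle-paired genes given above, whose part in this result was not tested.

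ENSRNA049470939 took 0.127% and 0.0911% of gene counts in Epi68 P1 and P3, against 0.0600%, 0.0882% and 0.0246% in Epi15 P1, P2 and P3. It made up 80.2% and 79.8% of the ENSRNA counts in the Epi68 plants, against 70.7%, 79.6% and 66.7% in the Epi15 plants. The other 215 rows together took 0.0313% and 0.0231% in Epi68 P1 and P3, against 0.0249%, 0.0227% and 0.0123% in the Epi15 plants. Without the leading row the lines overlapped, since Epi15 P1 lay above Epi68 P3. Epi68 P1 remained the highest plant and Epi15 P3 the lowest, at a ratio of 2.55.

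**Figure D2:**
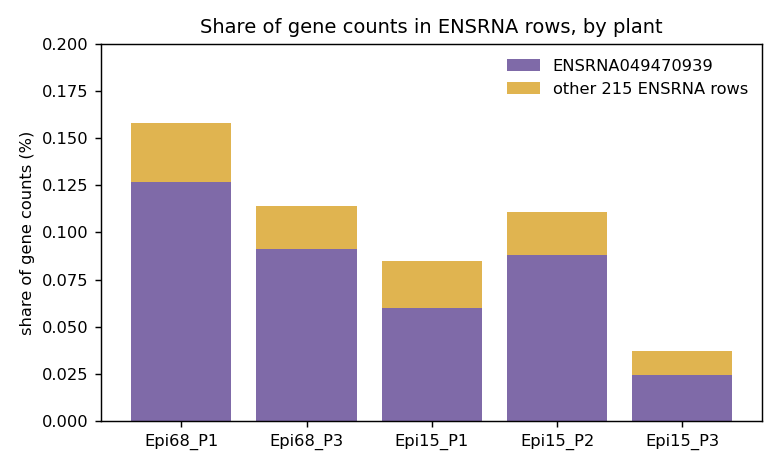
Share of gene counts (percent) held by ENSRNA rows in each plant, with Epi68 at the left. Each bar stacks the row ENSRNA049470939 and the other 215 rows, and the totals run from 0.158% in Epi68 P1 to 0.0369% in Epi15 P3.

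Levels of single rows are given below as CPM, counts scaled for library size with the TMM method of edgeR. ENSRNA049470939 had 1265 and 835 CPM in Epi68 P1 and P3, against 588, 940 and 258 CPM in Epi15 P1, P2 and P3. On this scale the lines overlapped, as Epi15 P2 lay above Epi68 P3, while Epi15 P3 lay well below all other plants. The log2 fold change of Epi68 over Epi15 was 0.82 with a standard error of 0.50, and the adjusted p was 0.999 in edgeR's quasi-likelihood test. With each library left out in turn, the log2 fold change lay between 0.46 (without Epi15 P3) and 1.302 (without Epi15 P2). It was 1.40 with a replicate block by plant number, with an adjusted p of 0.362 in the same test. With a block by biological replicate number it was 0.47.

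Several of the next rows by count had the same low plant. ENSRNA049471137 had 38.4 and 24.6 CPM in Epi68 P1 and P3, against 15.4, 34.7 and 2.53 CPM in Epi15 P1, P2 and P3. The lines overlapped, and the log2 fold change was 0.85 with a standard error of 0.82. It was 0.34 without Epi15 P3 and 1.81 without Epi15 P2, and a replicate block by plant number gave 2.28 and an adjusted p of 0.082 in edgeR's quasi-likelihood test, which is a call. Only Epi15 has a plant number 2, so that block takes Epi15 P2 out of the comparison of the lines. ENSRNA049475729 had 14.8 and 7.57 CPM in the Epi68 plants, against 4.96, 6.17 and 2.58 CPM in the Epi15 plants. Here both Epi68 plants lay above all Epi15 plants. ENSRNA049485570 had 9.85 and 4.86 CPM in the Epi68 plants, against 5.05, 5.66 and 2.34 CPM in the Epi15 plants. Epi68 P1 was again the highest plant and Epi15 P3 the lowest.

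Other rows among the 10 with the highest mean level did not share this order of highest and lowest plant. Epi15 P3 was still the lowest plant in ENSRNA049485572, ENSRNA049480688, ENSRNA049480693 and ENSRNA049483118. ENSRNA049485572 held 232 and 274 counts in Epi68 P1 and P3, against 1377, 1483 and 215 counts in Epi15 P1, P2 and P3. It was high in both Epi15 P1 and P2 and low in the other 3 plants, so the lines overlapped. Its log2 fold change was -1.89 with a standard error of 0.74. The unadjusted p was 0.0366 and the adjusted p 0.999 in edgeR's quasi-likelihood test. ENSRNA049996950 had 5.98 and 14.1 CPM in the Epi68 plants, against 13.3, 12.0 and 8.36 CPM in the Epi15 plants, and its lowest plant was Epi68 P1. ENSRNA049480688 had 4.74 and 4.89 CPM in the Epi68 plants, against 10.4, 5.42 and 4.51 CPM in the Epi15 plants, so only Epi15 P1 stood out. ENSRNA049480693 and ENSRNA049482525 overlapped between the lines, with log2 fold changes of 0.37 and 0.20. The last of the 10, ENSRNA049483118, did not overlap and is given with the least variable rows.

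**Figure D3:**
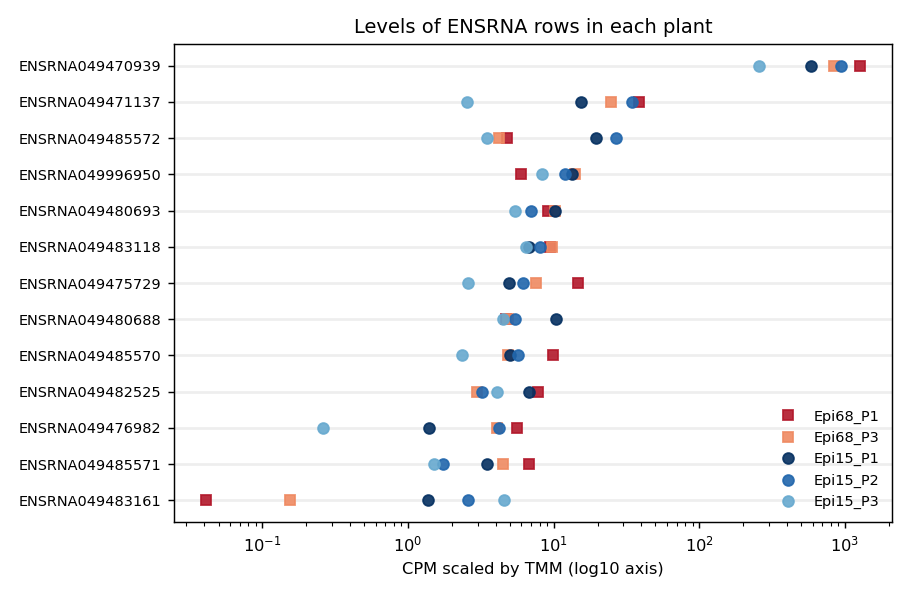
TMM-scaled CPM (log10 axis) in each of the 5 plants for the 10 ENSRNA rows with the highest mean level and for ENSRNA049476982, ENSRNA049485571 and ENSRNA049483161. Squares are Epi68 plants and circles Epi15 plants. Epi15 P3 is the lowest plant in most rows shown, while in ENSRNA049483161 it is the highest and both Epi68 plants are far to the left.

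Across the ENSRNA rows with at least 100 counts, the plants differed in a way that SORBI_ rows did not show or showed only weakly. For each row, the log2 CPM of a plant was set against the mean of the 5 plants. In the 91 ENSRNA rows with 100 to under 1000 counts, the median deviation was 0.55 and -0.17 in Epi68 P1 and P3, against 0.31, 0.04 and -0.53 in Epi15 P1, P2 and P3. In the 4408 SORBI_ rows of the same total count it was -0.15 and 0.26 in the Epi68 plants, against 0.01, -0.31 and 0.23 in the Epi15 plants. Thus Epi68 P1 stood high and Epi15 P3 low for ENSRNA rows, while SORBI_ rows with the same total counts stood low in Epi68 P1 and high in Epi15 P3. In the 16 ENSRNA rows with 1000 or more counts, the median was 0.70 and 0.18 in the Epi68 plants, against 0.21, 0.08 and -0.83 in the Epi15 plants. None of these 16 rows lay above its own mean in Epi15 P3. The 14798 SORBI_ rows of that class had medians between -0.04 and 0.02 in all plants, with Epi15 P3 lowest here too. They are not of like counts, since their median level was 29.1 CPM against 5.77 CPM for the 16 ENSRNA rows. The 109 ENSRNA rows with fewer than 100 counts followed the pattern of a high Epi68 P1 and a low Epi15 P3 only in part. Their median was 0.53 and 0.13 in the Epi68 plants, against -0.09, -0.27 and -0.14 in the Epi15 plants, so Epi15 P2 and not Epi15 P3 was lowest. The 3676 SORBI_ rows of this class had medians of -0.40 and 0.36 in Epi68 P1 and P3. Their medians in Epi15 P1, P2 and P3 were -0.04, -0.52 and 0.25. Set against these, ENSRNA rows again stood higher in Epi68 P1 and lower in Epi15 P3.

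**Figure D4:**
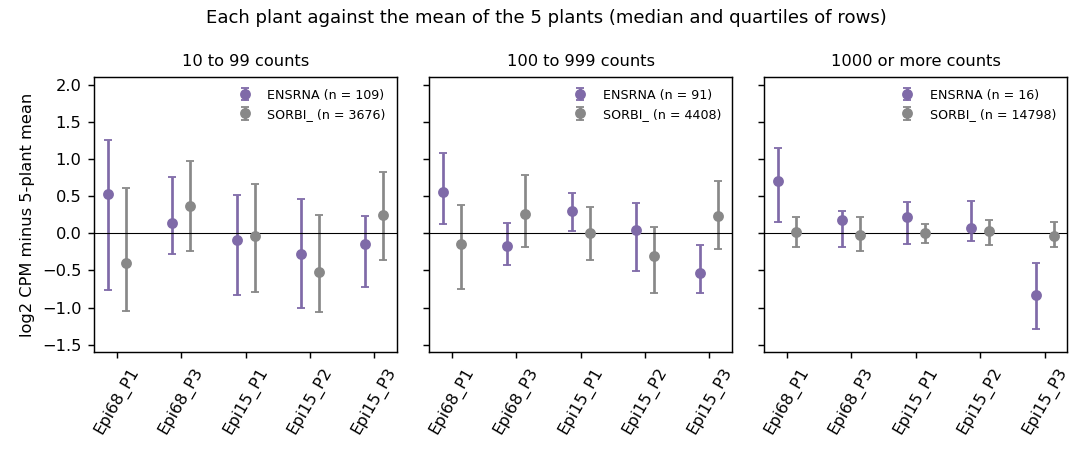
Deviation of each plant from the 5-plant mean (log2 CPM, vertical axis) in rows with 10 to under 100, 100 to under 1000 and 1000 or more counts. Points are medians over rows and bars run between the quartiles. ENSRNA rows are highest in Epi68 P1 in each panel. They are lowest in Epi15 P3 in the middle and right panels (-0.53 and -0.83), but in Epi15 P2 in the left panel (-0.27, against -0.14 in Epi15 P3).

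Counted by row, 54 of the 107 ENSRNA rows with at least 100 counts (50.5%) were highest in Epi68 P1, against 24.9% of SORBI_ rows with at least 100 counts. The other plants were highest in 13 rows (Epi68 P3), 24 rows (Epi15 P1), 13 rows (Epi15 P2) and 3 rows (Epi15 P3). Epi15 P3 was the lowest plant in 57 of the 107 rows (53.3%), against 20.4% of SORBI_ rows. It lay at least 2-fold below every other plant in 15 rows (14.0%), against 0.672% of SORBI_ rows. Epi68 P1 lay at least 2-fold above every other plant in 10 rows (9.35%), against 1.07%. Both extremes met in 28 rows (26.2%), against 7.83%. Most of these SORBI_ rows held 1000 or more counts, so the 2-fold contrasts are not of like counts. With 100 to under 1000 counts they were smaller. Epi15 P3 lay at least 2-fold below in 10 of 91 ENSRNA rows, against 2.06% of SORBI_ rows. Epi68 P1 lay at least 2-fold above in 10 of 91, against 2.86%. With 1000 or more counts these were 5 of 16 and 0 of 16 ENSRNA rows, against 0.257% and 0.534%. The plants stood in the same order as in ENSRNA049470939 in 6 of the 107 rows (5.61%), that row included, against 0.927% of SORBI_ rows. The other 5 were ENSRNA049471137, ENSRNA049476982, ENSRNA049463764, ENSRNA049485533 and ENSRNA049483749. These counts describe single plants, were chosen after the data were seen, and carry no test, since a plant has no replicate and rows of 1 library share its preparation.

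The spread between plants of a line was wide. The standard deviation of log2 CPM within lines had a median of 0.794 over the 216 ENSRNA rows and 0.375 over SORBI_ rows. Most of this gap went with low counts. With 10 to under 100 counts, the medians were 0.927 for ENSRNA and 1.04 for SORBI_ rows, and with 100 to under 1000 counts they were 0.696 and 0.695. With 1000 or more counts they were 0.678 in the 16 ENSRNA rows and 0.264 in SORBI_ rows. SORBI_ rows of this last class reach far higher counts. A class of 1000 to under 10000 counts was added after the data were seen. Its medians were 0.658 in 15 ENSRNA rows and 0.304 in 8022 SORBI_ rows. These too are not of like counts, since their median levels were 5.55 CPM and 13.1 CPM. The biological coefficient of variation that edgeR fitted, which sets counting error aside, had medians of 0.437 for ENSRNA and 0.298 for SORBI_ rows of 1000 to under 10000 counts, and 0.585 and 0.572 for rows with 100 to under 1000.

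Among rows with at least 100 counts, the most variable within lines were ENSRNA049484288, ENSRNA049476982 and ENSRNA049471137. ENSRNA049484288 had 3.07 and 0.138 CPM in Epi68 P1 and P3, against 1.48, 0.562 and 0.536 CPM in Epi15 P1, P2 and P3, so the 2 Epi68 plants were the highest and the lowest of all. ENSRNA049476982 had 5.57 and 4.11 CPM in the Epi68 plants, against 1.39, 4.23 and 0.260 CPM in the Epi15 plants, where Epi15 P2 lay with Epi68. The least variable rows were ENSRNA049482456, ENSRNA049483118 and ENSRNA049471439. ENSRNA049483118 had 9.44 and 9.70 CPM in the Epi68 plants, against 6.76, 8.07 and 6.41 CPM in the Epi15 plants. All 5 plants lay within 1.51-fold of each other, with both Epi68 plants above all Epi15 plants, and the log2 fold change was 0.43 with a standard error of 0.28.

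The comparison of Epi68 with Epi15 asks which features differ between the faster- and the slower-growing line. Of the 216 ENSRNA rows, 0 were called higher and 0 lower in Epi68 by edgeR's quasi-likelihood test. A call needed an adjusted p (Benjamini-Hochberg, over all rows) no higher than 0.1 and a log2 fold change of 0.5 or more in size. Over all 23098 rows this test called 0.00433%, which is 1 row, a SORBI_ locus. At an unadjusted p under 0.05, 7 ENSRNA rows (3.24%) were higher and 2 rows (0.926%) lower in Epi68, against 2.26% and 0.961% of all rows tested, and these counts moved with single plants. The number higher was 3 without Epi15 P1 (2.29% of all rows), 6 without Epi15 P2 (0.983%) and 2 without Epi15 P3 (1.46%). With a replicate block it was 12 by plant number (1.71% of all rows) and 0 by biological replicate number (0.883%). The number lower was 1 without Epi15 P1 (0.857% of all rows), 1 without Epi15 P2 (0.710%) and 2 without Epi15 P3 (0.688%). Counts from fits without an Epi68 plant are not given, since these leave a single plant of that line. The exact test of edgeR, which called 0.221% of all rows, called 0 ENSRNA rows higher and 1 lower. DESeq2, which called 0.294% of all rows, also called 0 higher and 1 lower. By limma-voom, 0 of all 23098 rows were called. At an unadjusted p under 0.05 it put 8 ENSRNA rows higher (3.70%) and 1 lower (0.463%), against 1.92% and 0.948% of all rows.

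The ENSRNA rows as a whole lay toward Epi68 in the fit. The median log2 fold change was 0.49, with quartiles of -0.14 and 1.03, against 0.02 with quartiles of -0.21 and 0.30 for SORBI_ rows and 0.02 for all rows tested. It was above 0 in 151 of 216 ENSRNA rows (69.9%) and in 52.5% of SORBI_ rows. By total count the ENSRNA medians were 0.58, 0.35 and 0.56 in rows with 10 to under 100, 100 to under 1000 and 1000 or more counts, against 0.14, 0.10 and 0.01 in SORBI_ rows. This shift rested on Epi68 P1. Without that library the median of the ENSRNA rows was -0.01, and 107 of the 216 rows were above 0. Without Epi68 P3 it was 0.66.

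Both Epi68 plants lay above every Epi15 plant in 29 ENSRNA rows (13.4%), where 9.29% of all rows tested did so. Both lay below in 10 rows (4.63%), where 7.48% did. Of the 29 rows, 20 held fewer than 100 counts, 5 held 100 to under 1000 and 4 held 1000 or more. The classes hold 109, 91 and 16 ENSRNA rows, so these are 18.3%, 5.49% and 4 of 16, against 11.4%, 9.82% and 8.58% of all rows of each class. Of the 10 rows below, 5 held fewer than 100 counts (4.59%, against 6.47% of all such rows) and 5 held 100 to under 1000 (5.49%, against 6.27%). In the middle class only 5 rows lay above and 5 below, so its shares rest on few rows, and the share below was close to that of all rows.

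**Figure D5:**
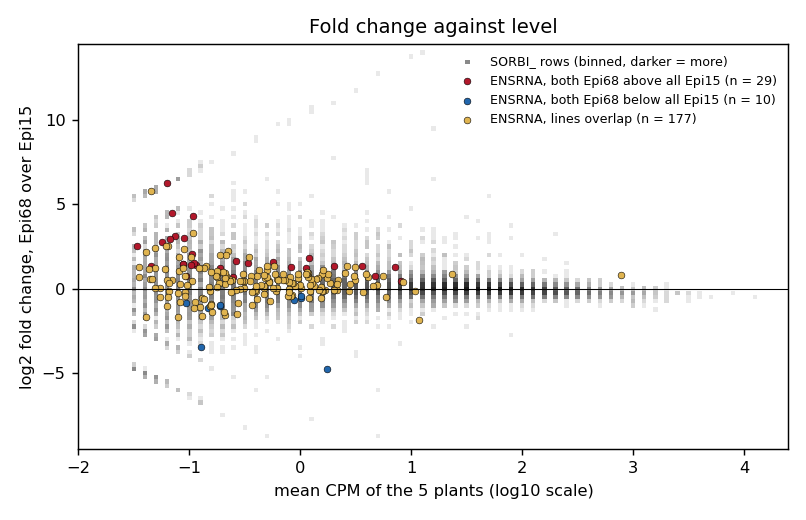
Fitted log2 fold change of Epi68 over Epi15 (vertical axis) against the mean CPM of the 5 plants (log10 scale, horizontal axis). Grey squares are SORBI_ rows in bins, darker where there are more, and circles are the 216 ENSRNA rows, of which 29 have both Epi68 plants above all Epi15 plants and 10 below. ENSRNA049483161 lies apart at -4.79.

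ENSRNA049483161 was the ENSRNA row that 2 of the tests called, and it was lower in Epi68. It held 2 and 10 counts in Epi68 P1 and P3, against 97, 142 and 279 counts in Epi15 P1, P2 and P3. In CPM these were 0.0412 and 0.154 in the Epi68 plants, against 1.38, 2.58 and 4.53 in the Epi15 plants. Each Epi15 plant was far above both Epi68 plants, with Epi15 P3 highest and Epi68 P1 lowest, the plants that were most often lowest and highest among ENSRNA rows. The log2 fold change was -4.79 with a standard error of 0.89. The quasi-likelihood test gave an unadjusted p of 0.000815 and an adjusted p of 0.991, whereas the adjusted p was 0.00357 in edgeR's exact test and 7.3e-06 in DESeq2. Over all alternatives it ran between 7.3e-06 and 1. The direction held without each library in turn, with log2 fold changes between -6.04 and -4.18. With only 2 Epi68 plants and 12 counts between them, its size is known poorly, and its class and genomic neighbours are not known here.

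Among rows with at least 100 counts, 9 of 107 (8.41%) had both Epi68 plants above all Epi15 plants, close to the 8.87% of all rows of that size, and none passed the adjusted threshold of the quasi-likelihood test. The lowest unadjusted p in edgeR's quasi-likelihood test was 0.0240, for ENSRNA049475729, whose levels are given above and whose log2 fold change was 1.29 with a standard error of 0.46, and 0.73 without Epi68 P1. ENSRNA049485571 followed, with 6.80 and 4.51 CPM in Epi68 P1 and P3, against 3.47, 1.74 and 1.51 CPM in the Epi15 plants. Its log2 fold change was 1.33 with a standard error of 0.49, and no Epi15 plant reached either Epi68 plant. ENSRNA049484589 had 2.45 and 3.85 CPM in the Epi68 plants, against 1.32, 1.74 and 0.633 CPM in the Epi15 plants. It differed from most of the 9 in having Epi68 P3 as its highest plant.

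In some of these rows the separation rested on a small gap. ENSRNA049471601 had 3.30 and 0.924 CPM in Epi68 P1 and P3, against 0.896, 0.508 and 0.390 CPM in the Epi15 plants, so Epi68 P3 lay just above Epi15 P1. Its log2 fold change was 1.81 with a standard error of 0.72, and 0.62 without Epi68 P1. The gap was wider in ENSRNA049483690, with 7.13 and 5.25 CPM in the Epi68 plants, against 3.84, 3.92 and 3.34 CPM in the Epi15 plants. The Epi15 plants lay close together and the log2 fold change was 0.74 with a standard error of 0.34. Epi68 P3 lay close to the highest Epi15 plant in ENSRNA049485360 (0.631 against 0.597 CPM) and in ENSRNA049485567 (1.17 against 1.03 CPM). ENSRNA049471531, ENSRNA049485360 and ENSRNA049485567 had log2 fold changes between 1.20 and 1.59 with standard errors between 0.66 and 0.98. Without Epi68 P1 these log2 fold changes were 0.50, 1.01 and 0.65, and that of ENSRNA049485360 was 2.46 without Epi15 P1.

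Both Epi68 plants lay below all Epi15 plants in 5 of the 107 rows with at least 100 counts (4.67%), against 7.68% of all rows of that size. Apart from ENSRNA049483161 these were 4 rows with small differences. ENSRNA049996294 had 0.618 and 0.677 CPM in Epi68 P1 and P3, against 0.896, 1.38 and 0.828 CPM in the Epi15 plants. ENSRNA049482456 had 0.618 and 0.677 CPM in the Epi68 plants, against 0.924, 0.834 and 0.893 CPM in the Epi15 plants, with the smallest spread within lines of all 107 rows, 0.0781 on the log2 scale. The log2 fold changes of these rows and of ENSRNA049468970 and ENSRNA049471439 lay between -0.67 and -0.45, none of them much larger than its standard error.

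Rows with few counts gave the steepest fitted increases. No ENSRNA row of the 216 was at 0 in both Epi68 plants, and 2 were at 0 in all 3 Epi15 plants. Of all rows tested, 0.459% were at 0 in both Epi68 plants and 0.377% in all 3 Epi15 plants, so such rows were rare in either set. ENSRNA049478932 held 13 and 3 counts in Epi68 P1 and P3 and 0 counts in each Epi15 plant, which is at least 8.79-fold higher in Epi68 against a floor of 3 counts over the Epi15 group. ENSRNA049997003 held 11 and 0 counts in the Epi68 plants and 0 in each Epi15 plant, at least 6.04-fold higher against the same floor, and all of its counts came from Epi68 P1. Both bounds lie above the median of the ENSRNA rows, which is thus the same with these rows at their bound. Neither row passed the adjusted threshold of the quasi-likelihood test.

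Rows with neighbouring ID numbers did not always move alike. Counting IDs whose numbers differ by at most 2 as neighbours, 64 of the 216 rows fell into 22 runs, although what neighbouring numbers mean for position is not given in the sources used here. The longest run held 9 rows between ENSRNA049485566 and ENSRNA049485577 with 8755 counts in all. Of these, 8 rows were lowest in Epi15 P3 and 4 were highest in Epi68 P1. The log2 fold changes in this run were between -1.89 and 1.35. The lowest value belonged to ENSRNA049485572, which was high in Epi15 P1 and P2, while ENSRNA049485571 beside it had 3.47 and 1.74 CPM in those plants and was higher in both Epi68 plants. In another run, 6 rows between ENSRNA049484587 and ENSRNA049484594 with 2074 counts, 5 were lowest in Epi15 P3. In a further run, 6 rows between ENSRNA049485360 and ENSRNA049485368 with 818 counts, none was lowest in Epi15 P3 and 4 were highest in Epi68 P1.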

How the data were processed

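Per the labels and the study's methods, the authors trimmed reads with Trim Galore 0.4.1, used STAR 2.7.3a for alignment to sorghum NCBIv3, retained unique alignments and deposited raw counts per gene made with QoRTs. They used edgeR 3.26.8. The notes also name DESeq. The strand setting is not given in the sources used here.

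Summary lines for reads in no gene or in several were kept out of library sizes. The 23098 rows with at least 10 counts were compared with edgeR 4.0.16 in R 4.3.3 by TMM scaling and the quasi-likelihood test, with no replicate block. Standard errors came from the F statistic and are approximate. Log2 CPM for spreads used a prior count of 2. Alternatives were RLE, the exact test, DESeq2 1.42.0, limma-voom (limma 3.58.1), other filters and prior counts, 2 replicate blocks and leaving out each library. Overlap of the lines was also counted with library size as the only scale.

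Rows named are the 10 with the highest mean CPM, up to 8 higher and 8 lower without overlap and with at least 100 counts, the 3 most and 3 least variable of these sizes, and those called by the exact test or DESeq2. Rows with few counts, rows ordered like the leading row and runs of IDs were named after their values were seen. The members and lists were chosen with earlier results of these data known. The gene table used here matched 0 IDs, so planned counts of genes for RNA-processing complexes and of leaf markers were not made.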

Additional observations from a re-analysis of the deposited data

Results flagged for a closer look

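The share of reads set aside as ambiguous, which the comparisons of rows do not use, was above the Epi15 level in both Epi68 plants. It averaged 0.543% in Epi68, with 0.528% as the lower of the 2 plants, against a highest Epi15 value of 0.477%. With 2 plants against 3 this was not tested, and its part in the ENSRNA counts was not tested.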

How the results depend on the processing

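ENSRNA rows were called in few alternatives. ENSRNA049483161 was the 1 row called lower by the exact test, by DESeq2 (adjusted p 7.3e-06) and with a replicate block by plant number (adjusted p 0.028). That block also called 1 row higher, ENSRNA049471137 (log2 fold change 2.28, adjusted p 0.082 in edgeR's quasi-likelihood test), and over all rows it called 0.199% higher and 0.104% lower. A block by biological replicate number called 0 ENSRNA rows, and 0.0303% of all rows higher and 0 lower. Plant number 2 and replicate number 3 occur only in Epi15. The first block thus takes Epi15 P2, and the second Epi15 P3, out of the comparison of the lines. Leaving out each Epi15 library called 0 ENSRNA rows in either direction, where at most 0.00433% of all rows were called higher and 0 lower. Deviations of same-numbered plants had correlations of 0.0209 and 0.387 over all rows by plant number, and 0.0209 and -0.363 by replicate number. The deviations of 2 Epi68 plants are mirror images, so a pairing by number cannot be judged from them. The median log2 fold change was 0.33 to 0.49 under other tools, filters, blocks and prior counts. Leaving out 1 library each gave -0.0061 to 0.66, the lowest without Epi68 P1. Rows with all Epi68 plants above all Epi15 plants numbered 38 to 108 with a library left out, and rows below 13 to 40, since fewer plants separate more easily. Over all rows tested these shares were 13.1% to 29.7% above and 11.8% to 27.1% below. Without Epi68 P1, 55 of the 216 ENSRNA rows lay above, where 29.7% of all rows did. With all 5 libraries scaled by library size only, 40 ENSRNA rows lay above and 8 below, against 14.1% and 4.24% of all rows. Without the leading row the mean share of gene counts was 0.0272% in Epi68 and 0.0200% in Epi15. Of 336 comparisons of a named row with an alternative, 328 kept their direction. The 8 others concerned 3 rows. ENSRNA049484288 had a log2 fold change of -0.45 by limma-voom, -0.30 with the block by plant number, -0.39 with the block by replicate number and -2.62 to 1.83 with a library left out. ENSRNA049482525 had -0.12 with the block by plant number and -0.65 to 0.72 with a library left out. ENSRNA049996950 had -0.91 to 0.33 with a library left out. The cause was not tested.

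Limits are the number of plants, of which Epi68 P1 and Epi15 P3 were the extremes of several measures, and the counts, which are under 100 over 5 libraries for 109 of the 216 rows. Unique mapping and the lack of a class or position for each row limit what a count stands for.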
